A study of Mus musculus with 6 samples.

Results

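B cells made up 115 of the 29738 kept cells in a sort for splenic CD4 T cells, and in them the H2-O, H2-DM and class II genes could be read beside each other in mice with and without H2-O. The cells were chosen by 3 or more UMIs (unique molecular identifiers, each counting 1 captured transcript) summed over Cd79a, Cd79b and Ms4a1, and by having no UMI of the macrophage genes C1qa, C1qb and C1qc. Only barcodes with 200 or more genes, up to 12000 UMIs and no more than 5% mitochondrial UMIs were considered. Spleens of naive C57BL6/J mice, labelled 8 weeks old, gave 6 libraries of 10x Genomics 5' single-cell RNA sequencing, 3 from H2-O knock-out (H2-O KO, here KO) and 3 from H2-O wild-type (H2-O WT, here WT) mice, sorted as CD3+ CD4+ B220- NK1.1- cells with dead cells removed by propidium iodide. The study's methods give the sorted mice an older age than the labels. No group received any other treatment, and the KO allele is not described further in the sources used here. The libraries held 3908 to 9131 called cells and 9973193 to 40237962 UMIs, and nothing in the labels states whether same-numbered mice shared a day or litter.

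MHC class II molecules present peptides to CD4 T cells and are made by B cells, dendritic cells and macrophages, while mouse CD4 T cells make almost none. The invariant chain, encoded by Cd74, blocks the peptide groove of new class II molecules, and H2-DM, encoded by H2-DMa with H2-DMb1 or H2-DMb2, then exchanges its remnant for other peptides. H2-O, a dimer of the products of H2-Oa and H2-Ob, binds H2-DM, and among peripheral cells it is best known from B cells. In a common model it restrains that exchange, whereas the study proposes that it cooperates with H2-DM in selecting the best fitting peptides.

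The genes of both dimers lie in the class II region of chromosome 17 in the GRCm38 build (GENCODE M21 annotation). H2-Oa spans 34092340 to 34095234 and H2-Ob spans 34238903 to 34254414, both on the plus strand. H2-DMa (34119541 to 34139101), H2-DMb2 (34143307 to 34151555) and H2-DMb1 (34153072 to 34160230) lie between them. Class II genes share an upstream X box and Y box, the second with the letters ATTGG, through which the coactivator CIITA raises them together. To show this shared layout, the stretch that runs from the letters GCAAC to the letters ATTGG, with 12 bases on each side, is printed from the RefSeq promoter table (GRCm38.p6) for H2-Oa (chr17:34092291-34092352, plus strand), H2-Ob (chr17:34238806-34238864, plus strand), H2-Aa (chr17:34287855-34287916, minus strand) and H2-Eb1 (chr17:34305764-34305824, plus strand), 5' to 3' in the direction of the gene, with both sets of letters in capitals.
H2-Oa: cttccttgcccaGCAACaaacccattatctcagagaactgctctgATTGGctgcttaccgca
H2-Ob: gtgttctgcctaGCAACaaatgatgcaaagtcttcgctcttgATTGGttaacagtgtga
H2-Aa: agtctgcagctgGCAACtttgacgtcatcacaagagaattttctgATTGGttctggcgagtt
H2-Eb1: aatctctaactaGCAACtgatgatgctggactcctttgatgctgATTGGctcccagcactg
The 2 sets of letters had 28, 25, 28 and 27 bases between them in H2-Oa, H2-Ob, H2-Aa and H2-Eb1. GCAAC followed by ATTGG after 10 to 60 bases was present in 5 of the 9 upstream windows listed for 8 class II and editor genes, H2-Eb2 being the other, and in 0.928% of the 32851 windows of 250 bases in the table. Either alone is common, with GCAAC on either strand in 29.9% and ATTGG in 33.8% of all windows. The letters were chosen with these sequences in view, and a match is a description of the window.

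In the B cells, H2-Oa was lower in every KO library than in every WT library, a difference that narrowly missed the adjusted threshold, while its partner H2-Ob and the H2-DM genes had overlapping levels in the 2 genotypes. The 36, 29 and 20 B cells of the KO libraries (replicates 1 to 3) held 3, 8 and 2 H2-Oa UMIs, and the 6, 11 and 13 B cells of the WT libraries held 5, 13 and 22. Summed over the B cells of a library, H2-Oa was at 20.7, 51.5 and 20.2 CPM (UMIs of the gene scaled to the UMI total of those cells) in KO and at 217, 223 and 354 CPM in WT. Every KO library lay below every WT library. The means were 30.8 ± 17.9 CPM in KO and 265 ± 77.3 CPM in WT (SD, n = 3 each), and an exact permutation test, two-sided, gave p = 0.1, the smallest p that 3 against 3 libraries allow. edgeR's quasi-likelihood test on the summed counts put the log2 fold change at -3.01 (standard error 0.49), an 8.07-fold lower level, with an unadjusted p of 5.21e-05 and a Benjamini-Hochberg adjusted p of 0.0656 over 1259 genes. H2-Oa had the lowest p of all genes tested but did not pass the 0.05 threshold.

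The remaining H2-Oa transcripts in KO were single UMIs. Of the 85 KO B cells, 13 held 1 H2-Oa UMI each and none held more. Of the 30 WT B cells, 15 held H2-Oa, 4 of them with 1 UMI and 11 with 2 to 6. Thinned to 1500 UMIs per cell, which left out 4 KO and 1 WT cells, 3.93 ± 1.20% of KO and 28.5 ± 4.31% of WT B cells had an H2-Oa UMI (SD, n = 3; exact permutation test, p = 0.1). Without thinning the shares were 8.33%, 27.6% and 10% in KO and 33.3%, 54.5% and 53.8% in WT. At the same depth, 0.55% of the other kept cells in KO and 0.802% of those in WT had one. The thinned KO shares stand for 1 cell in each library, so they do not set KO B cells apart from the remainder with any precision. The median depth was 3804, 5009 and 4831 UMIs per B cell in KO and 2622, 4913 and 3643 in WT, against 4736, 4826, 3806, 2094, 5076 and 2162 in the other kept cells of the same libraries. The source of the H2-Oa UMIs in KO was not tested.

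H2-Ob, which encodes the β chain of H2-O, was at 615, 386 and 314 CPM in the B cells of KO and at 390, 395 and 306 CPM in WT. The 2 ranges overlapped, and the log2 fold change was 0.32 (standard error 0.31; edgeR, adjusted p = 0.91). H2-DMb2, the most abundant editor gene in the B cells, stood at 954, 656 and 526 CPM in KO and at 651, 1030 and 595 CPM in WT, and its ranges overlapped as well (log2 fold change -0.08, standard error 0.29; edgeR, adjusted p = 0.98). H2-DMa was at 391 ± 147 CPM in KO and 352 ± 96.6 CPM in WT (SD, n = 3; edgeR, adjusted p = 0.95). H2-DMb1 was sparse, at 20.2 to 83.6 CPM in KO and 32.2 to 137 CPM in WT, and fell under the filter on low counts. H2-Oa thus took 0.932%, 3.51% and 1.68% of the UMIs of these 5 editor genes in KO B cells, against 13.5%, 9.92% and 22.4% in WT. The 2 sets of shares did not overlap, with means of 2.04 ± 1.33% and 15.3 ± 6.45% (SD, n = 3; exact permutation test, p = 0.1).

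**Figure D1:**
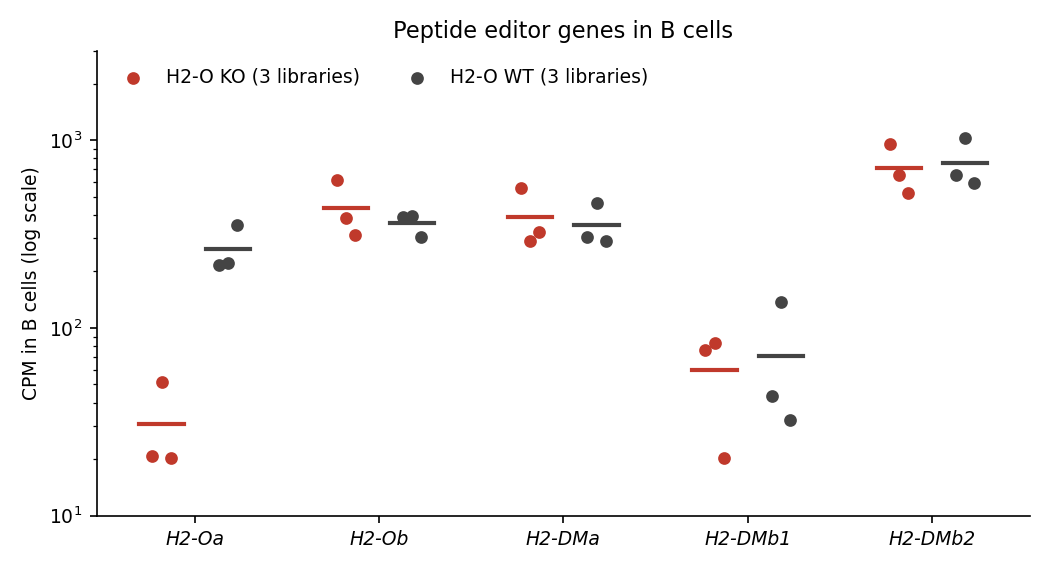
CPM (log scale) of the 5 peptide editor genes summed over the B cells of each library, with KO in red, WT in dark grey and a bar at each mean. For H2-Oa, the 3 KO libraries lie at 20.2 to 51.5 CPM and the 3 WT libraries at 217 to 354 CPM, while the genotypes overlap for the other 4 genes.

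The class II chains and the invariant chain were at similar levels in the 2 genotypes. Cd74 was the most abundant of them, at 23083, 14647 and 15104 CPM in the B cells of KO and at 13188, 19445 and 14875 CPM in WT, so that KO replicate 1 was highest and WT replicate 1 lowest. H2-Aa, the α chain of I-A, was at 5193, 3326 and 3007 CPM in KO and at 2993, 4394 and 3393 CPM in WT, again with overlap. The I-A β chain gene H2-Ab1 stood at 2078 ± 674 and 1865 ± 866 CPM and the I-E β chain gene H2-Eb1 at 2614 ± 625 and 2421 ± 561 CPM in KO and WT (SD, n = 3). The log2 fold changes of Cd74, H2-Aa, H2-Ab1 and H2-Eb1 lay between 0.11 and 0.17, with edgeR adjusted p of 0.93 to 0.95. Ciita, which encodes the coactivator of class II genes, was found in 30 B cells only (74.1 ± 39.5 and 186 ± 129 CPM; exact permutation test, p = 0.3). Of the 115 cells, 97 held at least 1 UMI of each of Cd74, H2-Aa, H2-Ab1 and H2-Eb1.

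Set beside the other cells of the same libraries, the B cells had the highest class II and editor levels of the 3 cell classes compared. This is a description, since B cell genes chose the cells and no test was run. Cd74 averaged 16724 ± 3760 CPM in the B cells, 2108 CPM in the 190 kept cells with 3 or more C1q UMIs, and 62.9 CPM in the kept cells outside the B cells, which include those 190 (means of 6 libraries). H2-Aa stood at 3718, 414 and 12.8 CPM in the same order, and H2-DMb2 at 735, 8.45 and 1.12 CPM. H2-Ob, at 401 CPM in the B cells, was at 35.4 CPM in the C1q cells and 23.6 CPM in the remainder. In WT, H2-Oa was at 265 CPM in the B cells and 5.81 CPM in the other kept cells, and in KO it was at 30.8 and 3.78 CPM. Of the lysosomal genes that prepare peptides or the invariant chain, Ctss, which encodes cathepsin S, was at 388 ± 102 CPM in the B cells and 560 CPM in the C1q cells, and Ctsb, which encodes cathepsin B, at 144 ± 45.0 and 2053 CPM.

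**Figure D2:**
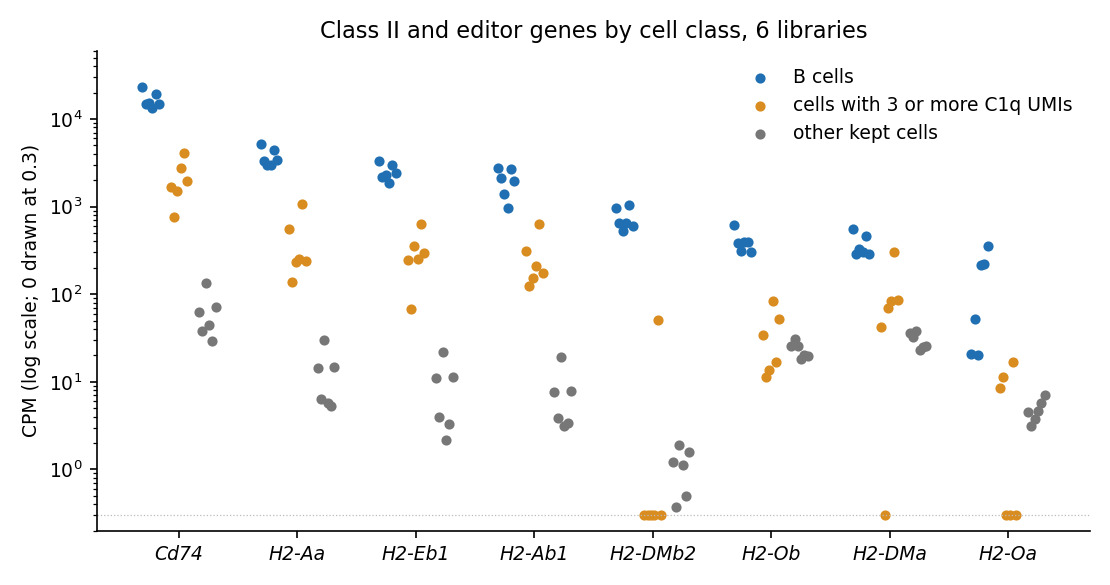
CPM (log scale, with 0 drawn at 0.3) of class II and editor genes in the B cells, in cells with 3 or more C1q UMIs and in the other kept cells, with 1 point for each of the 6 libraries. The B cells are highest for Cd74, at 13188 to 23083 CPM, and the 6 H2-Oa points of the B cells split by genotype, from 20.2 to 354 CPM.

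The label B cell held for most of the cells that the rule took, but not for all. Cd79a, which encodes the immunoglobulin α signalling chain, was present in 103 of the 115, and 102 of those 103 also carried an immunoglobulin V segment. The other 12 cells had no Cd79a and no immunoglobulin V segment UMI. They passed the rule on 3 to 5 UMIs, with a median of 3 Cd79b UMIs, and all 12 held 3 or more UMIs of the T cell genes Cd3e, Cd3d, Cd3g, Trac, Trbc1 and Trbc2, with a median of 35. Their median Cd74 count was 0.5 UMIs per cell, against 93 in the cells with Cd79a. Of these 12, 8 were KO and 4 WT cells. At the lower edge of the rule, 12 cells had exactly 3 UMIs of the rule genes, 9 of them without Cd79a, and 56 kept cells lay just outside it with 2 UMIs.

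A second set of 7 cells held the genes of both lineages. They carried Cd79a and 3 or more T cell UMIs, with medians of 19 UMIs of the rule genes, 70 of Cd74 and 13 of the T cell genes, and all 7 had an immunoglobulin V segment. Their median depth was 8114 UMIs, and 6 of the 7 were KO cells. No doublet caller was run on the kept cells. The other 96 cells were 79 with no T cell UMI and 17 with 1 or 2. A Cd3e UMI was found in 22 of the 115 cells (19.1%). At 1500 UMIs per cell the share with Cd3e was 5.88%, 21.4% and 21.1% in KO and 16.7%, 0% and 41.7% in WT, against 55.5% to 68.4% in the other kept cells of the 6 libraries. With 6 to 34 cells behind each share, the 2 genotypes overlapped fully (exact permutation test, p = 1), and the 0% of WT replicate 2 stands for 0 of 11 cells. The 12 cells without Cd79a are part of these shares. Counting only cells with a Cd79a UMI, chosen after seeing the data, the shares were 3.03%, 12.5% and 6.25% in KO and 0%, 0% and 30% in WT. Among the 79 cells with no T cell UMI, H2-Oa was at 36.5 CPM in KO (9 UMIs in 62 cells) and at 290 CPM in WT (24 UMIs in 17 cells), so its difference was about as large without the cells that held any of these 6 T cell genes. Some of the 79 held UMIs of other genes of the wider T cell list, such as Cd4.

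**Figure D3:**
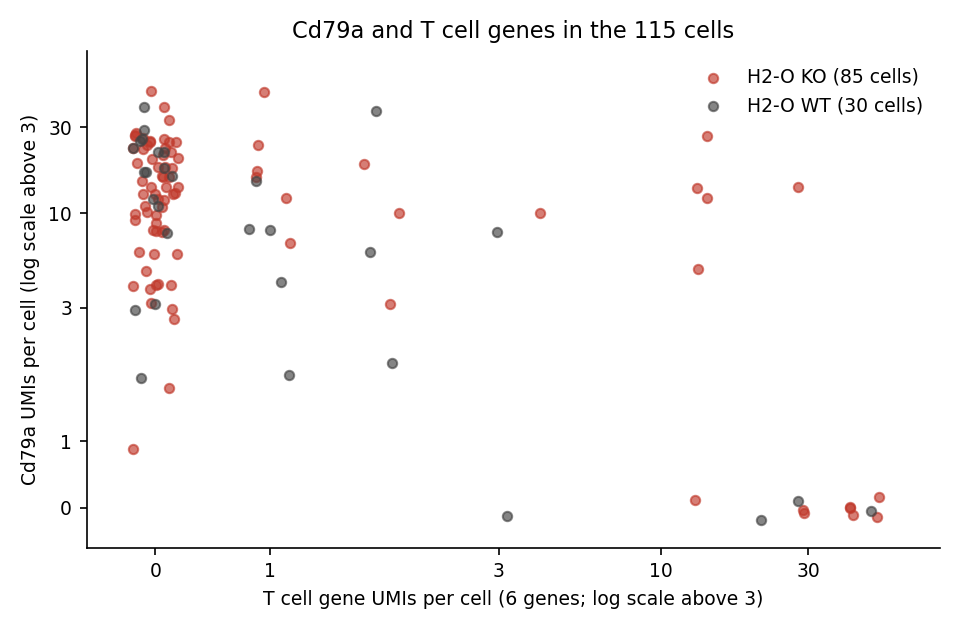
Each point is 1 of the 115 cells, with the summed UMIs of 6 T cell genes on the horizontal axis and Cd79a UMIs on the vertical axis (linear to 3, log above, jittered), coloured by genotype. The 79 cells without T cell UMIs form the column at the left, and the 12 cells without Cd79a lie along the bottom, all at 3 or more T cell UMIs.

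Most listed markers of dendritic cells and of NK and CD8 cells had no UMI, whereas T cell genes were present in 61 of the cells. The macrophage genes Csf1r, Adgre1, Vcam1, Spic and Fcgr1, the dendritic cell genes Itgax, Xcr1, Clec9a, Flt3, Siglech, Cd209a and Batf3, and the NK and CD8 genes Klrb1c, Ncr1, Gzma and Cd8a had no UMI in any of the 115 cells. Of the 13 genes on the macrophage list 5 were detected, with 10, 11 and 14 UMIs in KO and 0, 0 and 1 in WT, led by Ccr2. Scaled to the UMI totals, the list was at 69.2, 70.8 and 142 CPM in KO and 0, 0 and 16.1 CPM in WT. In the other kept cells it was at 66.2 to 105 CPM per library. That list includes C1qa, C1qb and C1qc, whose absence the rule required. Of the 10 dendritic cell genes 3 were detected, led by Bst2. The T cell list of 12 genes summed to 712, 2335 and 2379 CPM in KO and 2039, 103 and 2428 CPM in WT, with Cd3e as its most abundant gene and no marker at 0. Haemoglobin genes were found in 2 cells, and 1 cell of KO replicate 1 held 136 UMIs of them, which put the neutrophil and erythroid list at 940.5 CPM in that library.

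The share of these cells was higher in every KO library, in a design too small for the exact test to pass its threshold. The B cell share of kept cells was 0.461%, 0.756% and 0.327% in KO and 0.238%, 0.238% and 0.268% in WT. Every KO library lay above every WT library, with means of 0.515 ± 0.219% and 0.248 ± 0.0175% (SD, n = 3; exact permutation test, p = 0.1). Counting only cells with a Cd79a UMI, which was chosen after seeing the data, the shares were 0.460 ± 0.187% and 0.208 ± 0.0429% (exact permutation test, p = 0.1). With no T cell UMI allowed, the ranges overlapped, at 0.180% to 0.496% and 0.0825% to 0.216% (exact permutation test, p = 0.2). They also overlapped where ribosomal protein genes supplied 10% or more of the UMIs (0.543 ± 0.247% and 0.349 ± 0.0999%; exact permutation test, p = 0.3). Cells under that level made up 3.39%, 8.15% and 17.0% of the other kept cells in KO and 48.0%, 22.2% and 46.6% in WT, so the share of such cells moved with genotype, and its part in the share was not tested. The shares describe what passed the gate and not the spleen.

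**Figure D4:**
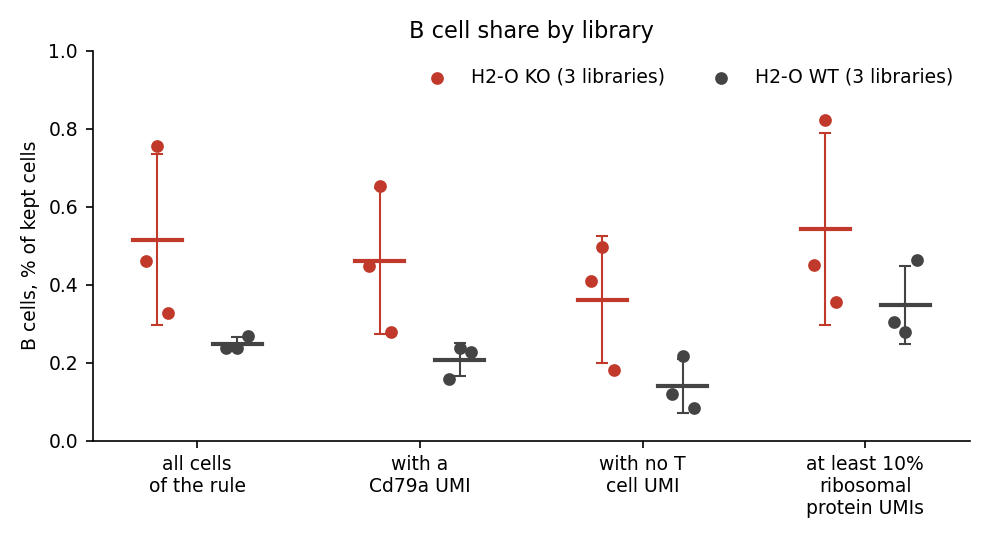
B cells as a percent of kept cells in each library (points), with the mean (bar) and SD (whisker) of 3 libraries per genotype, under the rule and under 3 narrower choices. Under the rule the KO libraries lie at 0.327% to 0.756% and the WT libraries at 0.238% to 0.268%, and under the 2 choices at the right the genotypes overlap.

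The leading genes of the cells encode antigen receptor parts, class II chains and factors of the B lineage. Genes found in at least 20% of the B cells were ranked by fold over the other kept cells (10 CPM added to each). The first 15 were Cd79a, Cd74, H2-Aa, Ly6d, H2-Eb1, H2-Ab1, Iglc2, Cd79b, Ms4a1, Iglc3, Igkc, H2-DMb2, Ebf1, Fcmr and Mef2c. Cd79a led with 2878 against 1.12 CPM, a description since it was part of the rule. Ebf1 and Pax5 encode transcription factors that hold B cell identity, and stood at 754 ± 141 and 122 ± 41.3 CPM (SD over 6 libraries). Ptprc, whose long protein isoform carries the B220 epitope used in the sort, had a UMI in 96 cells, and gene counts do not separate its isoforms.

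Immunoglobulin transcripts were those of IgM and IgD, with many different V segments. Ighm, the μ heavy chain gene, was found in 107 cells at 1099 ± 244 CPM and Ighd, the δ heavy chain gene, in 70 cells at 318 ± 97.8 CPM (SD over 6 libraries). Ighm was not specific to these cells, since 31.0% of the other kept cells in KO and 24.9% of those in WT held it at 1500 UMIs, against 75.6% and 69.2% of the B cells. Ighd was in 0.0524% and 0.176% of the other kept cells. No UMI of Ighg1, Ighg2b, Ighg2c, Ighg3 or Ighe was seen, and Igha had 1 UMI in each of 2 cells. The recombinase genes Rag1 and Rag2 had no UMI. An Ighv segment was detected in 99 cells, and in 87 of them the leading segment had 3 or more UMIs. That segment held at least 80% of the Ighv UMIs in 80 of the 87. The 87 cells used 48 different Ighv segments, the commonest being Ighv1-64 in 6 cells, and 91 cells with a leading Igkv segment used 40, led by Igkv1-117 in 9. In 83 cells with a leading heavy and light chain segment, 79 different pairs were counted, and 4 pairs occurred in 2 cells each. Segments with near-identical sequence share reads, so single segment names are uncertain.

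Light chain class depended on which end of the gene was counted. By V segments, 93 cells held more Igkv (κ) than Iglv (λ) UMIs, 9 held more Iglv, and 13 held neither, among them the 12 cells without Cd79a. UMIs of both kinds were present in 26 cells. By constant genes the cells looked mixed. Of the 93 κ cells, 89 also held UMIs of the λ constant genes Iglc1, Iglc2 or Iglc3, with medians of 9 Iglc and 4 Igkc UMIs per cell against medians of 25 Igkv and 0 Iglv UMIs. Summed per library, λ took 71.9%, 67.0% and 69.4% of constant gene UMIs in KO and 76.9%, 55.1% and 60.4% in WT (exact permutation test, p = 0.5), with overlap. By V segments, an alternative chosen after seeing the data, λ took 11.3%, 15.4% and 22.5% in KO and 1.32%, 5.44% and 4.66% in WT. These did not overlap (16.4 ± 5.68% and 3.81 ± 2.19%; SD, n = 3; p = 0.1 in an exact permutation test), and 8 of the 9 λ cells were KO, as were 69 of the 93 κ cells. Single cells carried much of these λ shares. Of the 114, 93 and 212 UMIs of Iglv1 in KO, 71, 61 and 105 lay in 1 cell of each library. Of the 26 in WT, 16 and 9 lay in 1 cell each of replicates 2 and 3, and both of those cells held more Igkv UMIs. In 5' libraries the reads of a rearranged chain begin at its V segment, and what the Iglc UMIs of κ cells are was not tested.

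**Figure D5:**
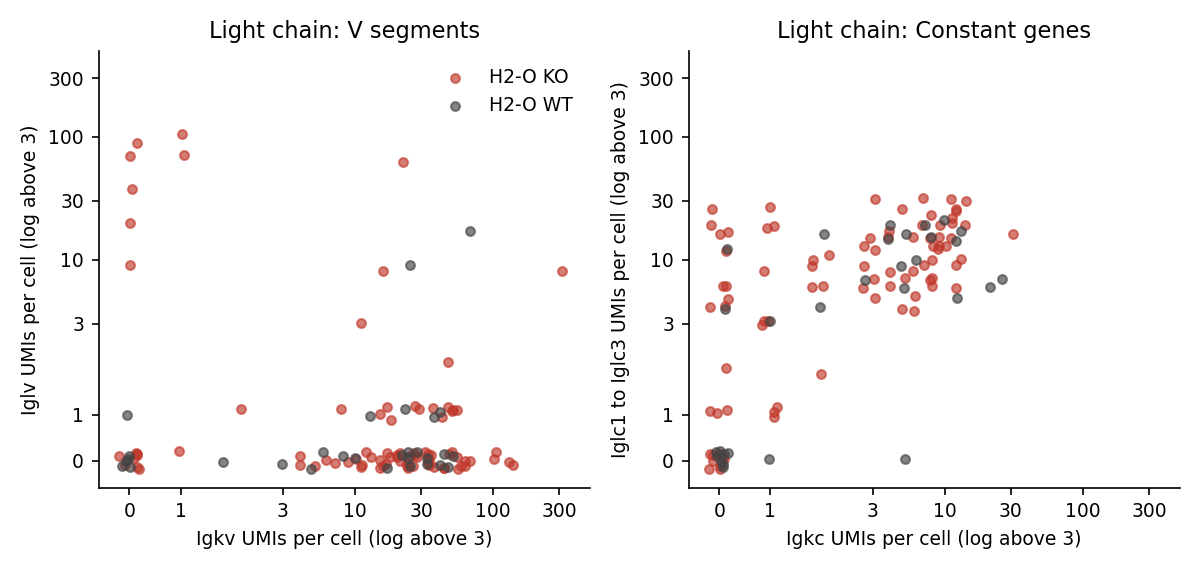
UMIs per cell of κ against λ light chain genes in the 115 cells, by V segments at the left and by constant genes at the right (linear to 3, log above, jittered), with KO in red and WT in dark grey. By V segments 93 cells hold more κ and 9 more λ UMIs, with 26 holding both, whereas by constant genes 80 of the 115 hold both Igkc and Iglc UMIs.

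Genes listed for several B cell stages were found in the same set of cells. At least 1 UMI of the follicular list was in 107 cells, of the marginal zone list in 92, of the transitional list in 78 and of the B1 list, led by the gene Cd5 that T cells also express, in 30. The other kept cells also held genes of these lists. Per library, the follicular list was at 998 to 2523 CPM in the B cells and 748 to 971 CPM in the remainder. The marginal zone list was at 719 to 1013 and 213 to 262 CPM. The B1 list was at 34.3 to 386 and 324 to 389 CPM, and the transitional list at 347 to 927 and 2.93 to 5.05 CPM. Fcer2a, which encodes CD23 of follicular B cells, was found in 66 cells at 389 ± 174 CPM and Cr2, which encodes the complement receptor CD21, in 46 cells at 241 ± 113 CPM (SD over 6 libraries), with 33 cells holding both and 13 holding Cr2 without Fcer2a. Mzb1, the most abundant gene of the marginal zone list, was in 57 cells. Of the transitional list, Cd24a was in 72 cells, Vpreb3 in 42 and Cd93 in 4. Of the germinal centre list, Bcl6 was found in 14 cells and Bcl6, Fas and S1pr2 together in 22, while Mef2b and Gcsam were at 0. The list summed to 38.6 to 83.0 CPM per library in the B cells and to 44.3 to 55.4 CPM in the other kept cells. Plasma cell genes were found in 72 cells, 13 of them with 3 or more UMIs. They summed to 37, 37 and 124 UMIs in KO and 2, 14 and 14 in WT. Scaled to the UMI totals these were 256, 238 and 1255 CPM in KO and 86.8, 240 and 225 CPM in WT, with overlap. In the other kept cells the list was at 87.0 to 120 CPM. Xbp1, a factor of secretory cells that other cells also express, was in 32 cells, whereas all 90 UMIs of Jchain lay in 1 cell of KO replicate 3. That cell held 1040 UMIs of Ighv3-6, 315 of Igkv5-39 and 39 of Ighm among 3277 UMIs, with 24 of Cd74 and none of H2-Aa. Genes of activation were common, with Cd83 in 72 cells and Cd69 in 71, but not particular to the B cells. Their list summed to 2776 to 5686 CPM per library in the B cells and to 3810 to 4732 CPM in the other kept cells. Nr4a1, an early response gene to antigen receptor signals, was at 360, 482 and 253 CPM in KO and 86.8, 223 and 96.5 CPM in WT. Its ranges did not overlap, but the fold change did not pass the test (log2 1.38, standard error 0.39; edgeR, unadjusted p = 0.0042, adjusted p = 0.42). Cd69 was at 354 ± 34.6 and 178 ± 165 CPM (SD, n = 3; edgeR, adjusted p = 0.90). In the other kept cells Nr4a1 was at 248 CPM in KO and 181 CPM in WT.

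Across all genes, no difference between KO and WT B cells passed the threshold. edgeR called 0 of 1259 genes (0%) at an adjusted p under 0.05, while 70 (5.56%) had an unadjusted p under 0.05, 34 higher and 36 lower in KO. DESeq2 called 1 of 11524, Igkv6-23, which was counted in 4 KO cells and no WT cell. Without regard to p, 78 genes (6.2%) were higher in every KO library than in every WT library and 84 (6.67%) were lower. Against those shares, 1 of the 4 tested editor genes, H2-Oa, was lower in every KO library, and 0 of the 4 tested class II chain genes separated in either direction. The median log2 fold change was 0.04 over the 4 editor genes, 0.12 over the 4 class II chain genes, 0.02 over 18 B cell identity genes, 0.21 over 5 proteases and 0.15 over 11 genes around H2-Oa on chromosome 17, against 0.02 over all 1259. Of 9 tested activation genes 1 (Nr4a1), of 18 identity genes 1 (Ly6d) and of 6 immunoglobulin constant genes 1 (Iglc2) had an unadjusted p under 0.05, all higher in KO, and of 8 Igkv segments 1 was higher and 1 lower. Neither the 2 interferon response genes nor the 6 dissociation genes that were tested had one. None of the 7 T cell, 4 follicular, 3 marginal zone and 2 transitional genes tested had one either. Of 3 nuclear RNAs 1, Malat1, had one, and it was lower in every KO library, at 8754 ± 1711 CPM in KO and 12084 ± 1229 CPM in WT (SD, n = 3; log2 fold change -0.44; edgeR, unadjusted p = 0.0168, adjusted p = 0.77). Of 75 ribosomal protein genes, 2 were higher and 7 lower at that level. Gm42418, which collects ribosomal RNA reads, was at 17554 ± 12177 CPM in KO and 28928 ± 12994 CPM in WT B cells (SD, n = 3; edgeR, adjusted p = 0.90). In simulated data of this size, 96.8% of genes changed 4-fold and 100% of genes changed 8-fold were recovered among those tested. Those tested were 155 and 161 of the 200 changed genes, the others having fallen under the filter on low counts, and 7 unchanged genes were called at each size. The simulation gave every gene the same spread and changed 200 genes at once, which eases the adjusted threshold. Its rates therefore do not carry over to the data, where H2-Oa, 8.07-fold lower, was not called.

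Whether the KO effect in B cells differed from that in the other kept cells was asked in 1 model over both. It was called for 5 of 10553 genes (0.0474%), and H2-Oa was not among them (difference -2.27 on the log2 scale, standard error 0.73; edgeR, unadjusted p = 0.0018, adjusted p = 0.76). The differences were shifted upward as a set, with a median of 0.23 over all 10553 genes and of 0.11 with library totals only. Of 425 genes with an unadjusted p under 0.05 in edgeR, 340 had a positive and 85 a negative difference. H2-Eb1, which was at 12.3 CPM in KO and 5.63 CPM in WT among the other kept cells, had a difference of -0.80 (standard error 0.26, adjusted p = 0.76). The same direction held for Cd74, at 77.9 and 47.9 CPM in the other kept cells, and for H2-Aa, at 17.0 and 8.62 CPM, and neither passed (edgeR, adjusted p = 1.00 for both). WT replicate 3 decided this: without it the difference was called for H2-Eb1 (-1.61, standard error 0.28; edgeR, adjusted p = 0.000111) and H2-Aa (-1.16, standard error 0.24; edgeR, adjusted p = 0.00663). In the other kept cells of that library H2-Eb1 was at 11.5 CPM, against 2.15 and 3.29 CPM in WT replicates 1 and 2 and 10.9, 3.94 and 21.9 CPM in KO. In simulated data of the same kind, with the same limits, this model recovered 25.5% of differences of 4-fold and 77.5% of those of 8-fold. The B cell share was also higher in KO, and its part in these low levels was not tested.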

How the data were processed

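The authors sorted and sequenced the cells (10x Genomics 5' kit v1.1) and the submitters' processing notes name Cell Ranger 6.1.2 and mm10. The deposited values are raw UMI counts per gene and called cell, not normalized, and nothing was imputed. Cells were kept by the limits of the study's methods (200 genes, 12000 UMIs, 5% mitochondrial). The members and gene lists were chosen with earlier results of these data known. Counts were summed over the B cells of each library (23052 to 155461 UMIs), and CPM is the sum divided by all UMIs of those cells. edgeR 4.0.16 in R 4.3.3 (quasi-likelihood, TMM, filterByExpr, threshold 0.05 after Benjamini-Hochberg adjustment over all tested genes) was the main test and DESeq2 1.42.0 the alternative. The edgeR fits were tested on simulated data. Single values per library were compared by exact permutation tests over every assignment of libraries to genotypes, in Python 3.11.15. Their p-values measure the spread between 3 mice per genotype. Shares of cells with a UMI were also computed after thinning each cell to 1500 UMIs. Genes named were those of the rule, the class II, editor and immunoglobulin lists, and the 15 of largest fold over other kept cells. Those 15 came from the genes found in at least 20% of the B cells. Up to 4 examples of every other list were also named, with further markers of other cell types added after their values were seen. Of 32285 gene identifiers, 32158 were found in GENCODE M21, used for positions. Of 29289 kept barcode sequences 444 occurred in more than 1 library. No B cell barcode was shared between libraries as a B cell, and 3 of the 115 were also kept in another library. Counting intervals are not given, since cells of 1 library are not replicates. Some items are not reported here.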

Additional observations from a re-analysis of the deposited data

Results flagged for a closer look

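The difference of the H2-O KO effect between B cells and the other kept cells passed the test for 5 genes (edgeR, adjusted p from 7.61e-09 to 0.00178). For Ly6d, a surface protein gene of B cells, it was 2.24 on the log2 scale, with 1768 ± 366 CPM in H2-O KO and 1100 ± 283 CPM in H2-O WT B cells (SD, n = 3) and 0.642 and 2.07 CPM in the other kept cells, and it was found in 71 and 21 B cells. H2-O WT replicate 3 carried the second of those levels, with 4.67 CPM against 0.632 and 0.901 CPM in H2-O WT replicates 1 and 2 and 0.346 to 1.04 CPM in H2-O KO, and without it Ly6d was not called. For Trbv1 it was -6.24, where 22 of the 24 UMIs in H2-O WT B cells lay in 1 cell. For Trbv16 it was -5.45, with all 18 H2-O WT UMIs in 1 cell. For Ighv9-3 it was -9.00, with 30 UMIs in 2 H2-O WT B cells, while the other kept cells held 212 UMIs in H2-O KO replicate 1, none in the other H2-O KO libraries and 6 in H2-O WT replicate 3. For Ighv1-55 it was -8.17, with 14 UMIs in 2 H2-O WT B cells, while the other kept cells held 316 UMIs (17.0 CPM) in H2-O KO replicate 2, 1 in H2-O KO replicate 3 and 3 in H2-O WT replicate 3. Barcodes outside the kept range also met the gene rule: 8 of the 418 above 12000 UMIs (1.91%), 4 of them with T cell UMIs, and 16 of the 7894 above the mitochondrial limit (0.203%), against 0.387% of kept cells.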

How the results depend on the processing

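Cell numbers limit these values: 30 H2-O WT B cells gave 40 H2-Oa UMIs and 6 cells stood for H2-O WT replicate 1. H2-Oa was lower in H2-O KO under all 18 alternatives that tested it (log2 -3.61 to -2.60), and adjusted p ran from 1.93e-05 to 0.55. It passed under 5 of them, which were 2 rule UMIs, 10% mitochondrial UMIs, a Cd79a UMI, no low-count filter and without H2-O WT replicate 2, and it was filtered out where no T cell UMI was allowed. The count of genes called between genotypes (0) became 3 with 2 rule UMIs, 1 with no T cell UMI, 1 with 10% mitochondrial UMIs, 2 with a Cd79a UMI, 6 without H2-O WT replicates 1 and 3 (1 H2-O WT library left, whose spread is taken from the H2-O KO libraries), 52 with no low-count filter and 1 with DESeq2. Leaving out 1 library gave 0 to 2, with a lone gene without H2-O KO replicate 1 and without H2-O WT replicate 1, and 2 without H2-O WT replicate 2. Several of these were V segments held by a few cells. Nr4a1 passed with no low-count filter (log2 1.58). The Cd79a alternative, the V segments and the omission of 2 libraries were chosen after seeing the data.

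Same-numbered libraries correlated at -0.32 to 0.06 in their deviations and others at -0.30 to 0.46 over 1259 genes, and no library correlated best with its own number. With the numbers, which no label ties to a shared day or litter, as a replicate block, the test called 1 gene, Igkv6-23. The count of genes with a different effect (5) became 11 with 5 rule UMIs, 10 with no T cell UMI and 14 with no maximum of UMIs, and ran from 3 (without H2-O WT replicate 3: Ighv9-3, H2-Aa and H2-Eb1) to 13 (without H2-O WT replicate 2). The B cell share difference kept its direction, and without 1 library it ran from 0.146 to 0.361 percentage points. The H2-Oa share of editor UMIs ran from -15.9 to -9.68 points and the λ share from 0.795 to 11.7 points. The Cd3e share difference (-3.32 points) turned to 1.93 without thinning and ran from -13.0 to 7.79 without 1 library, being 1.80 without H2-O KO replicate 1.

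Small log2 fold changes that passed no test changed sign. H2-DMb2 turned to 0.23 with 2 rule UMIs, 0.25 with no maximum, 0.16 with no low-count filter and 0.0013 with DESeq2. Ighm turned to -0.17 with 5 rule UMIs, -0.067 with at least 10% ribosomal protein UMIs and -0.011 with a Cd79a UMI. Ighd turned to 0.084 with 2 rule UMIs, 0.11 with no maximum and 0.030 with no low-count filter. Without H2-O WT replicates 1 and 3, H2-DMa stood at -0.094, H2-Aa at -0.049, H2-Ab1 at -0.22, H2-Eb1 at -0.047 and Iglc3 at -0.20. Leaving out 1 library, the ranges were -0.021 to 0.47 for H2-Ob, -0.22 to 0.41 for H2-DMa, -0.36 to 0.21 for H2-DMb2, -0.19 to 0.26 for H2-Aa, -0.14 to 0.44 for H2-Ab1, -0.12 to 0.27 for H2-Eb1, -0.084 to 0.33 for Cd74, -0.10 to 0.32 for Ighm, -0.37 to 0.21 for Ighd and -0.16 to 0.72 for Iglc3.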
